A study of Mus musculus with 6 samples.

Results

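Alveolar luminal progenitor genes are those that mark, or drive the identity of, the hormone receptor-negative luminal cells of the mammary gland, from which milk-secreting alveolar cells arise. The group described here has 8 genes chosen by name: Elf5, Ehf, Kit, Aldh1a3, Cd14, Tspan8, Basp1 and Fcgbp. All 8 were found among the 16701 genes of the authors' deposited table. The table compares polyadenylated RNA of luminal epithelial cells from mice lacking Ocln, the gene of the tight junction protein occludin (labelled Ocln-/-, 3 libraries), with the same cells from wild-type mice labelled Control (3 libraries). All were taken at 7 weeks of age. The sources used here do not state whether the knockout acts in every tissue or in the epithelium alone, what the strain background is, how luminal cells were isolated, or whether a library came from 1 mouse or a pool.

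The luminal layer holds hormone-sensing cells, which carry estrogen and progesterone receptors, and progenitors that lack them. In pregnancy the progenitors multiply and form alveoli under prolactin, which acts through its receptor and the transcription factor STAT5. ELF5, an ETS family transcription factor, is a master regulator of this alveolar program, and KIT and ALDH1A3 are widely used to mark the progenitors.

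None of the 8 genes passed the test of the comparison, and 7 of them had a positive log2 fold change. The authors' deposited table gives, for each gene, a log2 fold change of knockout over control with its standard error (SE) and a DESeq2 p-value, both unadjusted and adjusted over all listed genes. At an adjusted p under 0.05, 0 of the 8 were called, where 1.08 percent of all listed genes were called, 0.808 percent higher and 0.275 percent lower. At an unadjusted p under 0.05, 5 of the 8 were higher (Ehf, Elf5, Aldh1a3, Fcgbp and Basp1) and 0 were lower, against 5.23 percent and 3.83 percent of all listed genes. The authors' own call, which matches a rule of unadjusted p under 0.05 and an absolute log2 fold change above 1.01 with 0 exceptions, marks 1 of the 8, Fcgbp, as Up, where it marks 1.8 percent of all genes Up and 0.988 percent Down. The median log2 fold change was 0.44 over the 8 genes and -0.01 over all listed genes, 48.8 percent of which were positive. The 8 genes were chosen with earlier results of these data known, so these counts are a description and not independent evidence of a direction. In bulk RNA, fewer cells of a type and less RNA per cell cannot be told apart.

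**Figure D1:**
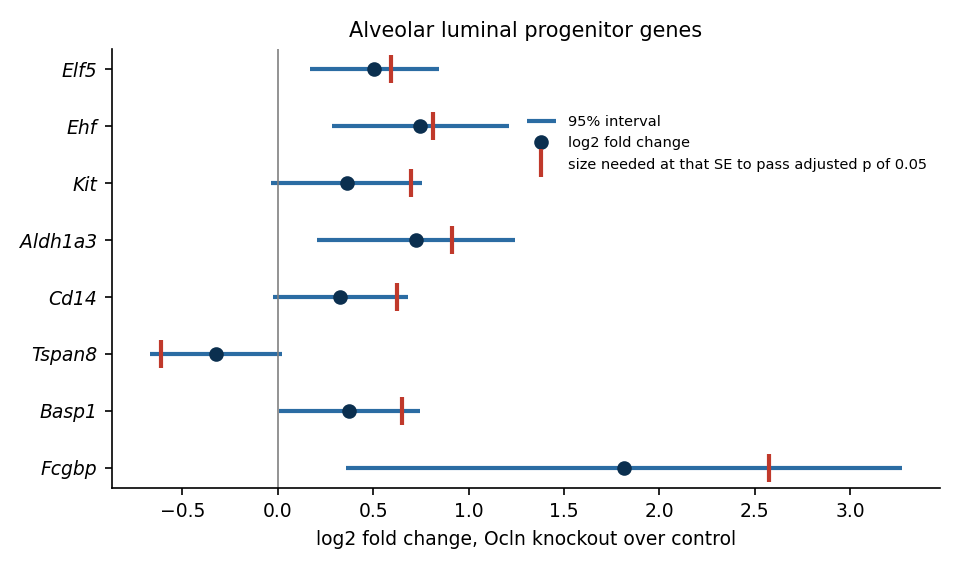
Log2 fold change of each of the 8 genes, knockout over control, from the authors' deposited table (points), with 95 percent intervals from the SE (blue lines) and the size each gene would have needed at its own SE to reach an adjusted p of 0.05 (red ticks). Every point lies nearer to 0 than its red tick. Ehf comes closest (0.75 against 0.82), and Tspan8 is the one gene left of 0.

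Ocln, the targeted gene, was lower in the knockout, and messages of luminal cells were abundant. It stood at 44.9 percent of the control level in the authors' deposited table (95 percent interval 35.9 to 56.2, DESeq2 adjusted p = 4.36e-09). The keratins of luminal cells, Krt18 and Krt8, had levels of 58513 and 31521 normalized counts per kilobase of transcript, and neither passed DESeq2's test in the authors' deposited table (log2 fold changes -0.10 ± 0.15 SE and -0.06 ± 0.14). Of 10 pan-luminal markers 0 were called, with a median log2 fold change of 0.03.

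The 8 genes are abundant messages in these cells. Their mean levels over the 6 libraries ran from 1815 normalized counts for Tspan8 to 34057 for Fcgbp in the authors' deposited table. Levels of different genes can be compared only per length, so each mean level was divided by the kilobases of the gene's longest coding transcript. On that scale of level, Basp1 was highest (4887 normalized counts per kilobase), followed by Fcgbp (4296), Cd14 (4159), Aldh1a3 (3375), Elf5 (2791), Kit (2528), Ehf (1942) and Tspan8 (1314). The whole range spans 3.72-fold. Among the 16250 genes with a known length, Basp1 ranked 313th on that scale, Elf5 533rd and Tspan8 1250th. No values per library are part of the table, so the spread of these levels between libraries is unknown, and no neighbours in this order can be said to differ.

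**Figure D2:**
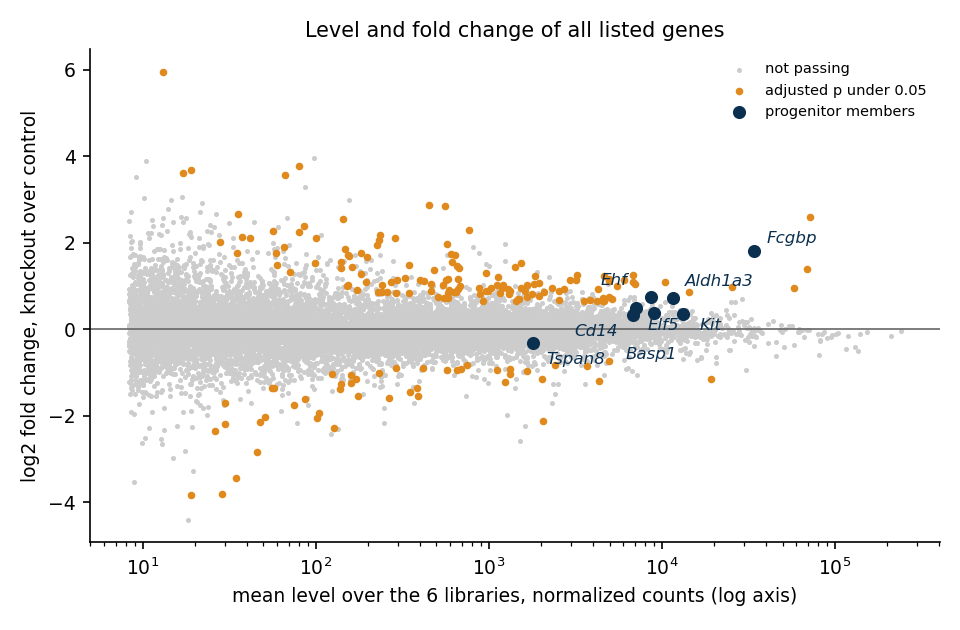
Log2 fold change against mean level (log axis, normalized counts over the 6 libraries) for every gene of the authors' deposited table. Grey points did not pass, orange points have an adjusted p under 0.05, and dark points are the 8 progenitor genes, all at mean levels of 1815 or more and 7 of them above the zero line.

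The 2 transcription factors of the group, Elf5 and Ehf, both had positive fold changes. Both belong to the epithelial branch of the ETS family, whose proteins bind DNA around a GGAA core. Ehf had the smallest p of the 8. Its log2 fold change in the authors' deposited table was 0.75 ± 0.24 (SE), or 168 percent of control (95 percent interval 122 to 231, DESeq2 p = 0.00153, adjusted p = 0.0951). Elf5 stood at 0.51 ± 0.17, or 142 percent (112 to 179) of control, in the authors' deposited table (DESeq2 p = 0.0033, adjusted p = 0.157). Taking the fold change as the ratio of the means of the 2 groups, these values correspond to about 6480 normalized counts in control and 10877 in knockout for Ehf, and to 5842 and 8293 for Elf5. With these SEs, Elf5 would have needed a level of 151 percent of control to pass and Ehf 176 percent. The intervals of both genes leave out no change, before any adjustment for the number of genes, and the interval of Elf5 also leaves out a doubling.

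Elf5 and Ehf lie near each other on chromosome 2. In the GENCODE annotation of GRCm38, the mouse build mm10, Elf5 runs from 103411688 to 103450989 on the plus strand and Ehf from 103263433 to 103303278 on the minus strand. The listed gene nearest to Elf5 is Cat, the catalase gene, 2860 bases away, with a log2 fold change of 0.06 ± 0.13 (SE) in the authors' deposited table (DESeq2 adjusted p = 0.959). The gene BC016548, which lies between the pair, stood at 0.08 ± 0.30 in the authors' deposited table (adjusted p = 0.978). The predicted gene Gm13874, on the far side of Ehf, had 2.23 ± 0.78 at a mean level of 11.2 normalized counts in the authors' deposited table (DESeq2 adjusted p = 0.189). Of these 5 genes, Elf5 and Ehf included, 0 passed. None of the 8 members lies on chromosome 13, which carries Ocln.

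Among the other ETS family genes, 22 of 24 were listed and 0 were called, with a median log2 fold change of 0.10. At an unadjusted DESeq2 p under 0.05, 5 were higher and 1 was lower. The lower one was Spdef, a luminal epithelial ETS factor gene (-0.63 ± 0.28 SE in the authors' deposited table, DESeq2 p = 0.0268). The higher ones were Ets2, Etv6, Erf and the leukocyte factor genes Spi1 and Spib, the last pair at mean levels of only 57.7 and 29.6 normalized counts. Spdef, Erf, Spi1 and Spib were named after their values were seen. Etv6, a repressor gene with the second highest mean level of these, had a log2 fold change in the authors' deposited table close to that of Ehf (0.74 ± 0.23 SE, adjusted p = 0.0933). Ets2, with the highest mean level, stood at 0.34 ± 0.15 (adjusted p = 0.456) in the authors' deposited table. Elf3, the third member of the epithelial branch, stood at 0.22 ± 0.24 (adjusted p = 0.886). These differences between family members were not tested.

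The list of genes around the prolactin pathway, which acts upstream of Elf5, had a median near 0. It mixes carriers of the signal such as Prlr and Stat5a with inhibitors such as Socs3 and with Notch genes. Its median is therefore no measure of the activity of the pathway, which was not tested. Of 21 genes of prolactin signalling, STAT5 and alveolar differentiation, 20 were listed, 1 rose and 0 fell, and the median log2 fold change was -0.05 (9 positive, 11 negative). The gene that rose was Notch1, a receptor of the Notch pathway that acts in luminal fate (0.76 ± 0.20 SE in the authors' deposited table, DESeq2 adjusted p = 0.0211). Notch1 lost its call when scores were scaled down by their inflation (adjusted p = 0.0668), and also when their trend over transcript length was removed (0.0731). Prlr, the prolactin receptor gene, was at 76.0 percent of control (95 percent interval 53.6 to 108) in the authors' deposited table (adjusted p = 0.717). Stat5a stood at -0.25 ± 0.27 (adjusted p = 0.879), and Gata3, a luminal transcription factor gene, at -0.39 ± 0.24 (adjusted p = 0.689), in the authors' deposited table. Socs3, a feedback inhibitor gene of cytokine receptors, stood at -0.34 ± 0.32 (adjusted p = 0.855).

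Kit encodes the receptor tyrosine kinase for stem cell factor, whose own gene is Kitl. Kit had a log2 fold change of 0.36 ± 0.20 (SE) in the authors' deposited table, or 128 percent of control (97.6 to 169, DESeq2 p = 0.0738, adjusted p = 0.617). The corresponding group levels are about 11598 normalized counts in control and 14903 in knockout. Its ligand gene had the opposite sign. Kitl stood at -0.78 ± 0.34, or 58.1 percent of control (36.7 to 92.0), in the authors' deposited table (DESeq2 p = 0.0206, adjusted p = 0.410, not passing). Of the 20 listed genes of KIT ligand and signalling, 0 were called, 16 had a positive log2 fold change and the median was 0.17. The 2 with the highest mean levels had log2 fold changes of 0.22 ± 0.14 (Stat3) and 0.21 ± 0.17 (Pik3r1) in the authors' deposited table. Kit also marks mast cells and melanocytes. Of 10 mast cell markers 6 were listed, with a summed mean level of 136 normalized counts and none above 17.2 per kilobase, against 2528 per kilobase for Kit. Of 8 melanocyte markers 1 was listed, Pmel, at a mean level of 47.4. The part of mast cells and melanocytes in the value of Kit was not tested.

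Aldh1a3 encodes the aldehyde dehydrogenase that makes retinoic acid from retinal and gives luminal progenitors much of their aldehyde dehydrogenase activity. It stood at 0.72 ± 0.26 (SE) in the authors' deposited table, or 165 percent of control (115 to 236, DESeq2 p = 0.00618, adjusted p = 0.227). Group levels of about 8765 normalized counts in control and 14472 in knockout correspond to this. Only 5.54 percent of all listed genes had a larger log2 fold change. Its relatives Aldh1a7 and Aldh1a1 had negative signs and lower levels, 49.4 and 8.01 normalized counts per kilobase against 3375 for Aldh1a3. Aldh1a7 fell to 24.3 percent of the control level (interval 11.7 to 50.3, DESeq2 adjusted p = 0.0187), with a mean level of 102 normalized counts in the authors' deposited table. Aldh1a1 was listed at a mean level of 18.9 with a log2 fold change of -1.26 ± 0.54 and did not pass (adjusted p = 0.413). These 2 genes are closely related in sequence, so some reads may be split between them by the counting. This was not tested, and their separate values are uncertain. Aldh1a2 is not among the listed genes.

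Of 23 genes of retinoic acid synthesis and response, 16 were listed, 0 rose and 2 fell, with a median log2 fold change of -0.09. These calls depend on the setting. Crabp2, which encodes another retinoic acid-binding protein and is named here after its values were seen, stood at 0.65 ± 0.19 (SE) in the authors' deposited table at 907 normalized counts (DESeq2 adjusted p = 0.0555). It was called higher among genes with mean levels of at least 50 (adjusted p = 0.0478) or 500 (0.0481), after centring (0.0496) and with the length trend removed (0.0237). Both genes that fell have low mean levels, and the minimum of 500 leaves neither of them in the table. The second that fell was Crabp1, a retinoic acid-binding protein gene (-2.34 ± 0.60 SE, DESeq2 adjusted p = 0.0136, mean level 26.2 in the authors' deposited table). Of the 2 calls, that of Aldh1a7 was lost when scores were scaled down by their inflation (adjusted p = 0.0607). Dhrs3, which turns retinal back to retinol and has the highest mean level of the list, stood at -0.61 ± 0.23 in the authors' deposited table (adjusted p = 0.274, not passing). Rarg, a retinoic acid receptor gene, stood at 0.14 ± 0.22 (adjusted p = 0.942).

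The surface markers Cd14 and Tspan8 had fold changes of opposite sign. Cd14 encodes the co-receptor that hands bacterial lipopolysaccharide to the TLR4 receptor and is used to sort luminal progenitors. Its log2 fold change in the authors' deposited table was 0.33 ± 0.18 (SE), 126 percent of control with an interval of 98.2 to 161 percent (DESeq2 p = 0.0696, adjusted p = 0.611), for group levels of about 6050 and 7598 normalized counts. Its partner genes were less abundant. Tlr4 (226 normalized counts per kilobase) and Ly96, which encodes the MD-2 subunit (197), stood at 0.22 ± 0.19 and -0.33 ± 0.31 in log2 fold change in the authors' deposited table, neither passing. Of the 19 listed genes of this pathway 0 were called, and the median log2 fold change was 0.13.

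Monocytes and macrophages also express Cd14. All 14 of their markers were listed, 12 with a positive log2 fold change, and 0 were called, with a median of 0.46. Lyz2, with the highest mean level of them, stood at 0.97 ± 0.29 (SE, DESeq2 adjusted p = 0.0665) in the authors' deposited table. The level of Cd14 was 4159 normalized counts per kilobase, against 411 for Lyz2 and 1511 for all 14 markers summed. Neutrophil markers were listed for 6 of 10 genes, all positive, with a median of 2.31 and a median SE of 0.61. Of the 6, 2 were called, S100a8 and Ngp. The summed mean level of the list was 230 normalized counts. The part of these cells in the value of Cd14 was not tested.

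Tspan8 encodes a tetraspanin, a membrane protein that organizes other surface proteins, and was the one member with a negative sign. It stood at -0.32 ± 0.18 (SE) in the authors' deposited table, or 79.8 percent of control (62.8 to 101, DESeq2 p = 0.0657, adjusted p = 0.602). The corresponding group levels are about 2019 normalized counts in control and 1612 in knockout. Its interval ends below the lower bounds of the intervals of Ehf, Elf5, Aldh1a3 and Fcgbp, but the same libraries gave all of these values and the difference between genes was not tested. Among other tetraspanins, 23 of 26 were listed, 1 rose and 0 fell, with a median log2 fold change of -0.08 (10 positive, 13 negative). Tspan33 was the one that rose (0.88 ± 0.25 in the authors' deposited table, DESeq2 adjusted p = 0.0343), a call lost when scores were scaled down by their inflation (adjusted p = 0.0985). The highest mean levels were those of Cd9 (-0.13 ± 0.18) and Cd82 (-0.27 ± 0.20), neither of which passed in the authors' deposited table.

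Basp1 encodes a membrane-bound phosphoprotein of the inner leaflet, related in behaviour to MARCKS and GAP43. It stood at 0.37 ± 0.19 (SE) in the authors' deposited table, 130 percent of control with an interval of 100.3 to 168 percent (DESeq2 p = 0.0471, adjusted p = 0.540), for group levels of about 7895 and 10236 normalized counts. Its relatives had opposite signs. Marcks fell to 55.5 percent of the control level (interval 43.3 to 71.3) in the authors' deposited table (DESeq2 adjusted p = 0.00107). Marcksl1 stood at 0.62 ± 0.22 and did not pass (adjusted p = 0.189). Gap43 is not among the listed genes.

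Fcgbp, which encodes a large secreted mucin-like protein that binds the Fc part of IgG, had the highest fold change and the lowest precision of the 8. Its log2 fold change was 1.81 ± 0.74 (SE) in the authors' deposited table, or 352 percent of control, with an interval from 128 to 965 percent (DESeq2 p = 0.0147, adjusted p = 0.352). Group levels of about 15083 normalized counts in control and 53030 in knockout correspond to this. At that SE it would have needed a level of 595 percent of control to pass, while the other 7 would have passed at between 151 and 188 percent for a rise. Among the 500 genes nearest to it in mean level, the median SE was 0.18, and 99.6 percent had a smaller SE than Fcgbp.

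**Figure D3:**
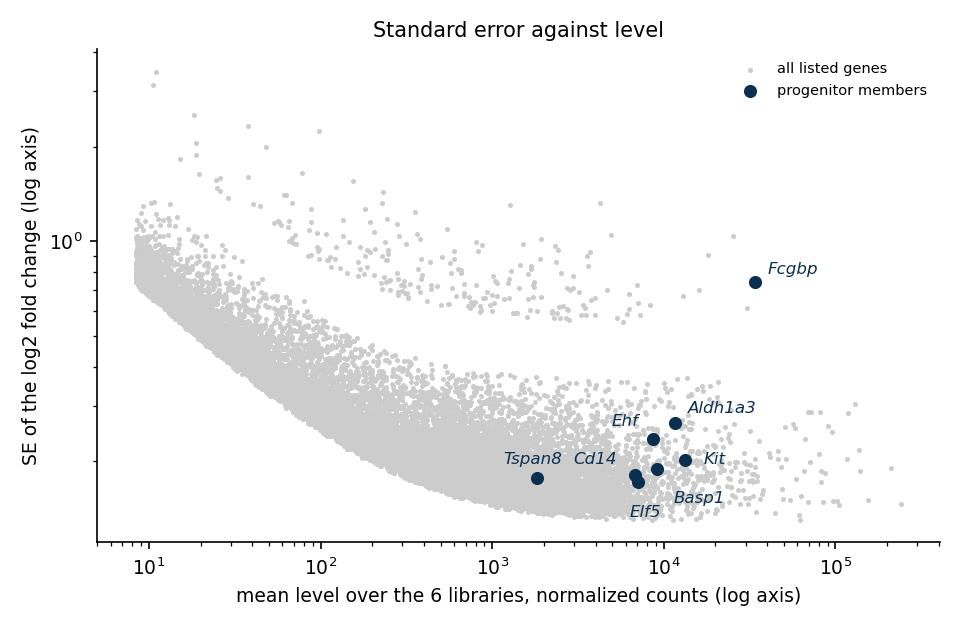
SE of the log2 fold change against mean level (both log axes) for all genes of the authors' deposited table (grey) and the 8 progenitor genes (dark). Fcgbp (SE 0.74) lies in a separate upper band, and the other 7 members (SE 0.17 to 0.26) lie in the lower one.

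The SE of Fcgbp belongs to a set of genes that stands apart in the table. Among the 7649 genes whose mean level reached 500, 7534 had an SE below 0.45, 0 lay from 0.45 to 0.55, and 115 (1.50 percent) lay above, bounds that were chosen after the plot of SE against level was seen. Fcgbp has the highest mean level of these 115. Of the 115 genes 0 were called, where 103 of the 7649 were called with p adjusted among them alone. With SEs this large a call needs a large fold change, so the 0 follows largely from how the set was chosen. Of the 115, 42 were positive and 73 negative. The authors marked 10 of them Up and 4 Down, where they marked 1.8 and 0.988 percent of all listed genes, at any mean level. Their rule has a minimum fold change, which genes with a large SE reach more easily. These counts are therefore also not independent of how the set was chosen. The table does not show which libraries differ for Fcgbp. Of the other 7 members 0 were in the upper set. For Ehf and Aldh1a3, 83.6 and 89.2 percent of the 500 genes nearest in mean level had a smaller SE, and for Elf5 46.8 percent.

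The mucin genes Muc1 (1.15 ± 0.29 SE) and Muc15 (1.09 ± 0.30) rose in the authors' deposited table (DESeq2 adjusted p = 0.00993 and 0.0319) and are counted below with the progenitor genes. Of 20 further mucin and mucosal secretion genes, which leave these out, 8 were listed, 0 were called and 7 had a positive sign. Their median log2 fold change was 0.47 and their median SE 0.71. Dmbt1, a mucosal defence glycoprotein gene with the highest mean level of them, stood at 1.05 ± 1.05 (SE) in the authors' deposited table (DESeq2 adjusted p = 0.871) and is also among the 115. Vwf, the next, stood at 0.22 ± 0.20 (adjusted p = 0.859).

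Several further genes of the progenitor and alveolar state passed. Of 26 such genes, in a list also chosen with earlier results known, 25 were listed, 8 rose and 1 fell, with a median log2 fold change of 0.48, near the 0.44 of the 8 members. The largest rises were Ltf (2.59 ± 0.29 SE), the lactoferrin gene, Pigr (1.49 ± 0.34), which encodes the receptor that carries antibodies into milk, and Muc1 (1.15 ± 0.29), an apical mucin gene, in the authors' deposited table (DESeq2 adjusted p = 0.00993 for Muc1, and smaller for the others). Csn3, the kappa-casein gene, fell (-1.15 ± 0.31, DESeq2 adjusted p = 0.0246) in the authors' deposited table. Itga2, which encodes an integrin used beside Kit to sort progenitors, stood at 0.99 ± 0.29 (adjusted p = 0.0609), and Sox10, a transcription factor gene of progenitors, at 0.48 ± 0.19 (adjusted p = 0.307), in the authors' deposited table. These 2 were named after their values were seen. So were Lcn2 (0.20 ± 0.22 SE), Sox9 (0.14 ± 0.22), Itgb3 (0.06 ± 0.19) and Cxcr4 (-0.31 ± 0.26), which had smaller values, none passing. Of the 25 listed genes, 18 had a positive log2 fold change and 7 a negative one. Mfge8, a milk fat globule protein gene with the second highest mean level of the list, rose too (0.95 ± 0.26 in the authors' deposited table, DESeq2 adjusted p = 0.0249). Of the 9 calls, 3 were left at an adjusted p under 0.01. With scores scaled down by their inflation 3 were left as well, and those of Csn3 (adjusted p = 0.0759) and Mfge8 (0.0766) were among the lost ones. That of Csn3 was also lost with the length trend removed (0.0522).

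Markers of the hormone-sensing luminal cells had the opposite median sign. Of 16 such markers 14 were listed, 0 were called, 4 were positive and 10 negative, and the median log2 fold change was -0.47. The SEs of the single markers were large, with a median of 0.58, and the precision of the list median was not computed. Those with the highest mean levels, Ptn (-0.60 ± 0.29 SE) and S100a6 (-0.46 ± 0.26), had adjusted p-values of 0.497 and 0.623 in the authors' deposited table. Cycling-cell genes had a median of -1.06 and a median SE of 0.49, with 11 of 12 negative and 0 called. At an unadjusted DESeq2 p under 0.05, 5 of the 12 were lower and 0 higher, against 3.83 and 5.23 percent of all listed genes. The difference between the progenitor and hormone-sensing lists was not tested.

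Markers of basal, stromal, vascular, fat and lymphoid cells gave 2 calls. Oxtr, the oxytocin receptor gene of contractile myoepithelial cells, fell (-1.55 ± 0.38 SE in the authors' deposited table, DESeq2 adjusted p = 0.00733), as the only call among 12 basal and myoepithelial markers (median log2 fold change -0.10). Dcn, the decorin gene of fibroblasts, fell (-1.36 ± 0.35 in the authors' deposited table, DESeq2 adjusted p = 0.0134), as the only call among 9 fibroblast markers (median 0.10). The 8 endothelial markers had a median of 0.02, and 3 listed adipocyte markers of 8 a median of -0.45, with 0 called in each. B and plasma cell markers were listed for 6 of 10 genes, 5 of them positive, with a median of 1.56, a median SE of 1.36 and 0 called. T and NK cell markers were listed for 3 of 10, all positive, with a median of 0.34 and 0 called. Summed mean levels were 395 normalized counts for the B and plasma cell markers and 193 for the T and NK cell markers. The part of these cells in the values of the 8 members was not tested.

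**Figure D4:**
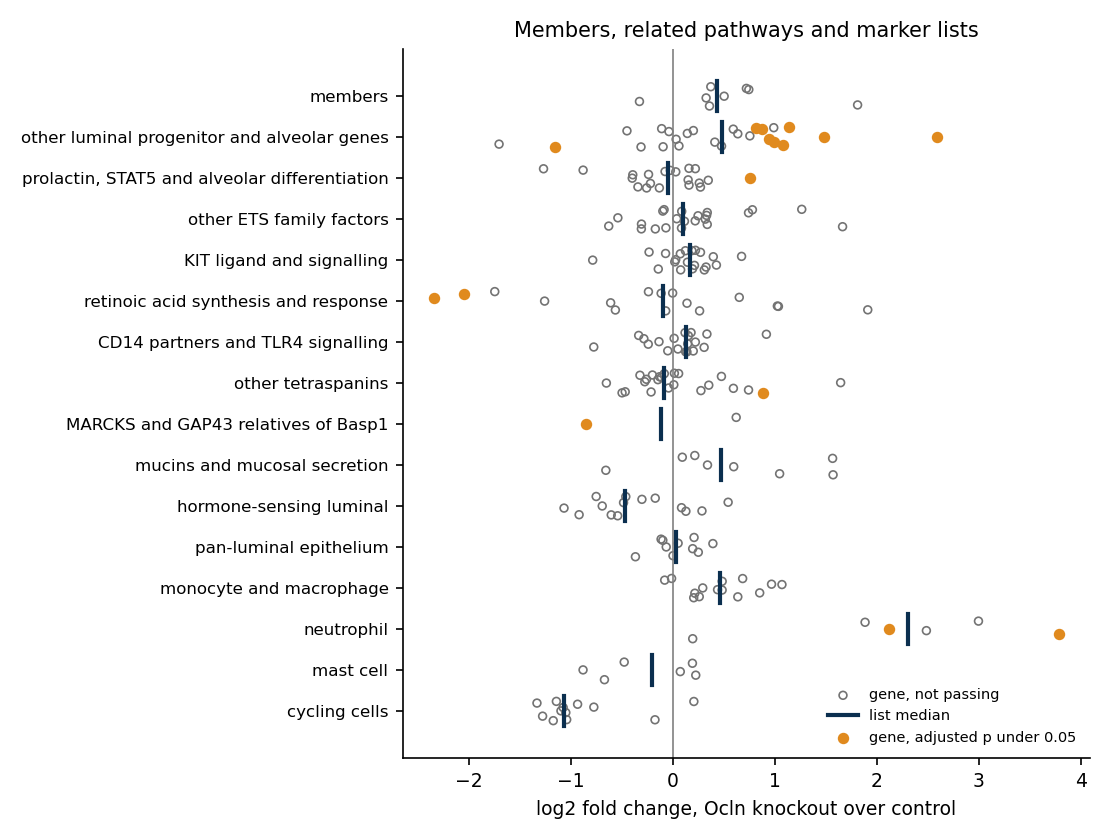
Log2 fold changes of the members, of 9 lists of related genes and of 6 marker lists, from the authors' deposited table. Each circle is a gene, filled orange circles have an adjusted p under 0.05, and bars are list medians, which read 0.44 for the members, 0.48 for the other progenitor genes and -0.47 for the hormone-sensing markers. The SEs, not drawn, had a median of 0.20 among the members and 0.58 among the hormone-sensing markers.

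Promoter sequence was available for 5 of the 8 members, Elf5, Kit, Fcgbp, Tspan8 and Basp1, from RefSeq on GRCm38.p6, as 7 windows of 250 bases upstream of a start site. They were searched on both strands for AGGAAG and CGGAAG, forms of the ETS core bound by proteins such as ELF5 and EHF, and for TTCNNNGAA, the STAT core. AGGAAG was found in 4 of the 7 windows, from 3 genes, Kit (2 overlapping windows), Fcgbp and Basp1, and in 29.5 percent of all 32851 windows. CGGAAG and TTCNNNGAA were found in 0 of the 7, against 13.6 and 7.02 percent of all windows. A match describes these letters and is not a binding site. The windows below are those of the regulator Elf5 at its second start site, of Kit, of Fcgbp, which has the highest fold change, and of Tspan8, the one member with a negative sign. Only the stretch outside annotated exons is shown, 5′ to 3′ on the gene's strand, with AGGAAG in capitals.
Elf5, chr2:103423818-103424061, plus strand: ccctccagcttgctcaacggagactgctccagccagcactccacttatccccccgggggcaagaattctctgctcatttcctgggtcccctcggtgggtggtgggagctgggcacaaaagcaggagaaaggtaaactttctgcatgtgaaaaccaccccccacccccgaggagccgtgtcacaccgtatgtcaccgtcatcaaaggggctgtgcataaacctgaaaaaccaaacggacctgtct
Kit, chr5:75574737-75574915, plus strand: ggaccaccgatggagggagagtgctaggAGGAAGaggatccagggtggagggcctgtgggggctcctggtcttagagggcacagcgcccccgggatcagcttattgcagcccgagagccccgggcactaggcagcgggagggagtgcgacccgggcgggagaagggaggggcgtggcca
Fcgbp, chr7:28070986-28071235, plus strand: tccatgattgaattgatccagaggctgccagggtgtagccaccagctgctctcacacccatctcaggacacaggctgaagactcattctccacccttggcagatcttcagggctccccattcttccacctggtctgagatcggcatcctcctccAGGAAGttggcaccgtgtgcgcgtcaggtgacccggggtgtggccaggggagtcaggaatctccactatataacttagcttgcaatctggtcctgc
Tspan8, chr10:115817034-115817270, plus strand: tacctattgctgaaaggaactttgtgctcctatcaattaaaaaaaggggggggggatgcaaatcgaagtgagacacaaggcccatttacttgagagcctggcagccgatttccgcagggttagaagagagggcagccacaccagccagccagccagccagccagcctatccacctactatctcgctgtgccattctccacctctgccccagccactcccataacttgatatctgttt
The stretches of Kit and Fcgbp each hold 1 match, and those of Elf5 and Tspan8 hold none.

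The remaining members lie on several chromosomes of GRCm38 in the GENCODE annotation, all as protein-coding genes. Kit runs from 75574916 to 75656722 on the plus strand of chromosome 5 and Fcgbp from 28071236 to 28120862 on the plus strand of chromosome 7. Aldh1a3 runs from 66390890 to 66427517 on the minus strand of chromosome 7, Tspan8 from 115816832 to 115849893 on the plus strand of chromosome 10, and Basp1 from 25363277 to 25413764 on the minus strand of chromosome 15. Cd14 lies on chromosome 18. Elf5 has 4 annotated coding transcripts from more than 1 start site, and the deposited values do not show which of them was present.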

How the data were processed

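Polyadenylated RNA of mammary luminal cells was sequenced in 3 Control and 3 Ocln knockout libraries. The authors deposited 1 table of their comparison, made with DESeq2 on mouse build mm10, per the submitters' processing notes. Version, aligner, counter and model formula are not stated in the sources used here. The authors' deposited table holds, per the file headers, a mean level (a signal in normalized counts over the libraries), a log2 fold change with its SE (another kind of value, in log2 units), a Wald score, a p-value and an adjusted p-value, and the authors' call. The direction, knockout over control, was taken from the table's name. No values per library were used, so depth per library is unknown, nothing could be recomputed without a library, and precision is that of the authors' SE. Where nothing says that libraries came from separate mice, the p-values measure the spread between libraries, which may be technical.

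The members and the 22 lists of related genes and markers were chosen with earlier results of these data known. Calls use an adjusted p under 0.05 over all 16701 genes, with no new test per gene. Intervals are 95 percent, from the SE and a normal distribution. Group levels were computed from the mean level and the fold change, assuming that the fold change is the ratio of the group means. Lengths and positions are from GENCODE M21 (GRCm38), with a length for 16250 genes, and promoters from RefSeq (GRCm38.p6). The size needed to pass is the smallest absolute Wald score among called genes, 3.46, times the SE. Named genes are the members, up to 4 called genes per related list (2 per marker list), the 2 with the highest mean level in each list, known partners of members, and the 2 listed genes nearest to Elf5 and to Ehf. Not every gene that the rule takes is described. The part of the rule on likeness over libraries could not be applied. Alternatives were a stricter threshold, a minimum fold change, mean levels of at least 50 and 500, the authors' calls, scores scaled by the root of their inflation factor (1.18), centring, and removal of the trend with transcript length in 20 bins. The adjustment code was tested on simulated data. Python 3.11.15, pandas 2.3.3 and scipy 1.17.1 were used.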

Additional observations from a re-analysis of the deposited data

How the results depend on the processing

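Across 8 alternatives for each of the 8 members, 63 of 64 results kept their direction and their side of the threshold. The exception was Fcgbp, which the authors' own call marks Up, so that rule gives 1 called member in place of 0. Many of these results were fixed in advance. With 0 members called at first, the stricter threshold, the minimum fold change and the scaling by inflation could not change a call. Only centring and removal of the length trend altered fold changes, so direction and median could not move under the other settings. The median log2 fold change of the members stayed near 0.44 (0.45 after centring). Recomputed adjusted p-values of Ehf ran from 0.0828 to 0.218 and those of Elf5 from 0.139 to 0.323.

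Counts of called genes in the related lists moved more. For the other progenitor genes, 9 became 3 at an adjusted p under 0.01, 5 with a minimum log2 fold change of 1, 5 by the authors' call and 3 after division by the inflation. The prolactin list went from 1 to 0 under those 4 settings and with the length trend removed. The retinoic acid list went from 2 calls, both lower, to 0 at an adjusted p under 0.01, 1 at a mean level of at least 500 (Crabp2, higher), 5 by the authors' call (1 higher, 4 lower) and 1 after division by the inflation (lower). At a mean level of at least 50 it held 1 higher and 1 lower, and after centring or with the length trend removed 1 higher and 2 lower. The tetraspanin list went from 1 to 0 at an adjusted p under 0.01, with the minimum log2 fold change, at a mean level of at least 500 and after division. The MARCKS list went from 1 to 0 with the minimum fold change and by the authors' call. By the authors' call the ETS list went from 0 to 2 and the mucin list from 0 to 1. Over all genes, 181 calls became 107 at 0.01, 117 with the minimum fold change, 103 at a mean level of at least 500, 466 by the authors' call and 119 after division. Apart from fewer genes tested or a stricter or looser rule, the cause was not tested.

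No paired analysis was possible because the table holds no values per library. For the same reason the fits without each replicate, with another normalization or with edgeR were not run.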

Other observations

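The genes whose SE stands apart at their mean level include many markers of hormone-sensing luminal cells. Of the 14 listed hormone-sensing markers, all with a mean level of at least 500 normalized counts, 8 (57.1 percent) were among the 115 genes of the upper SE band, against 1.50 percent of all genes at that level, and against 1 of 8 progenitor members, 2 of 21 other progenitor genes and 0 of 10 pan-luminal markers. High shares were not particular to these markers. At that level the band also held 2 of 3 mucin and mucosal secretion genes and 2 of 4 cycling-cell genes. It held 1 of 17 genes of the prolactin list, 1 of 14 of the ETS list and none of the remaining lists. The 8 hormone-sensing markers in the band are Esr1, the estrogen receptor gene, Ly6a, Areg, Wnt4, Cited1, Cxcl15, Rcan1 and Fxyd2, named here after their values were seen. Esr1 had a log2 fold change of -0.69 ± 0.58 (SE), Cited1 of -0.92 ± 0.68 and Areg of 0.13 ± 0.63 in the authors' deposited table. The progenitor members other than Fcgbp had SEs of 0.17 to 0.26. These hormone-sensing markers, which were picked by their place in the band, had SEs of 0.58 to 0.82. The hormone-sensing markers outside the band had SEs from 0.26 (S100a6) to 0.31 (Foxa1). The separation of the first 2 ranges therefore follows from the choice of genes. The osteopontin gene Spp1 (-1.70 ± 0.96) and the Notch target gene Hey1 (-0.45 ± 0.60) are the 2 other progenitor genes in that band, per the authors' deposited table. Which libraries differ cannot be read from the table.

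The 8 genes of the upper SE band with the highest mean levels are Fcgbp, Tmprss2, Gpx3, Trp53inp1, Fgb, Fgg, Areg and Upk3a. Their log2 fold changes in the authors' deposited table run from -1.05 for Upk3a to 1.81 for Fcgbp.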
